A study of Mus musculus with 22 samples.

Results

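Imprinted growth genes other than Igf2 were followed through choroid plexus (ChP) of mice with altered Otx2, as 10 named genes (H19, Dlk1, Meg3, Peg3, Plagl1, Cdkn1c, Grb10, Ndn, Mest and Nnat) out of 33984 genes in the count files. The members were named by symbol, and the transcript of each that collected the largest number of reads stood for the gene. All 10 were in the files and all 10 passed the filter on low counts in every comparison. RNA was sequenced from 14 pools of mice, 2 pools (A and B) in each of 7 groups. The conditional model used Otx2lox/lox mice of strain label S129, 3 months old, which received Cre-Tat protein or vehicle in the lateral ventricles 15 days before dissection, and gave pools labelled Cre-Tat or vehicle from the lateral ventricle (LV) and from the fourth ventricle (4V). The vehicle pools therefore carry the lox alleles too. The constitutive model used mice of strain label B6D2, also 3 months old in the study's methods, and gave 4V pools labelled WT, Otx2 (+/-), the Otx2+/GFP line of the study, and Otx2 (+/AA), an allele that the sources used here do not explain. Each pool mixes several mice. The study used males and females in equal parts, but the sexes in each pool are not given. Cre-Tat acts on whatever cells take it up, and the Otx2 (+/-) and Otx2 (+/AA) mice carry their allele in all cells and throughout life. The models carry separate series of library numbers and are treated here as different sequencing runs. Model, strain and run therefore cannot be told apart, and levels are compared within a run only. Nothing in the labels says more of how pools A and B were made, and p-values measure the spread between these pools. The study dissected LV and 4V separately from the injected mice, so LV and 4V pools of a treatment may hold the same animals. Which pools would pair is not given, and the main tests are unpaired.

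Imprinted genes are transcribed mainly from the allele of a single parent, and many of them act on fetal growth. Genes active from the paternal allele often favour growth and genes active from the maternal allele often restrain it. Among the members, H19, Meg3, Cdkn1c and, in most tissues, Grb10 are expressed from the maternal allele, and Dlk1, Peg3, Plagl1, Ndn, Mest and Nnat from the paternal allele. H19 lies next to Igf2, a growth factor that adult ChP secretes into the cerebrospinal fluid. In some tissues both genes are read with shared distal enhancers, and whether this holds in adult ChP was not tested. These counts do not separate the alleles, so nothing here is a measure of imprinting itself.

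The members occupy a few places in the genome (GRCm38, GENCODE vM21). H19 is a long non-coding RNA gene at chr7:142575529-142578143 on the minus strand. Cdkn1c, which encodes a cyclin-dependent kinase inhibitor, is on the same chromosome at chr7:143458339-143461050, minus strand. Dlk1, a Notch-ligand-like membrane protein, at chr12:109452823-109463336, and Meg3, a long non-coding RNA, at chr12:109541001-109571726, share a cluster and the plus strand. Peg3, a zinc-finger protein, is at chr7:6703892-6730431 on the minus strand, and Ndn, necdin of the MAGE family, has a single exon at chr7:62346569-62350262 on the plus strand. Plagl1, a zinc-finger transcription factor, is at chr10:13060504-13131694 on the plus strand. Grb10, an adaptor that damps insulin and growth factor receptor signalling, is at chr11:11930508-12038683 on the minus strand. Mest, a protein of the alpha/beta hydrolase fold, is at chr6:30723547-30748465, and Nnat, a small membrane protein, is at chr2:157560078-157562522, both on the plus strand.

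Some counts cannot be assigned to a member alone, since the strand used for counting is not given in the sources used here. Of the Mest transcript that stands for the gene (Mest-211), 909 bases (35.5%) are shared with exons of Copg2 on the opposite strand. The chosen Cdkn1c transcript shares 31.2% of its bases with the antisense gene Gm44732, and that of Meg3 shares 8.4% with Gm26906 on the opposite strand. Nnat is represented by a model with a retained intron (Nnat-204) and lies inside Blcap, which is read from the other strand. The chosen transcripts of Dlk1, Peg3, Plagl1, Grb10 and Ndn share no exon with another gene.

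H19, Meg3 and Mest are also hosts of microRNAs on their own strand, and the mature sequences of miR-675, miR-770 and miR-335 (RefSeq, GRCm38.p6) are given. Meg3 also spans Mir1906-1, outside the exons of its chosen transcript, which is not printed. The chosen Nnat transcript shares 87 bases (6.0%) with an annotated microRNA gene, Gm23134, on the opposite strand. The seed, bases 2 to 8, is in capitals. The H19 transcript holds miR-675 in an exon (5p at chr7:142577112-142577133 and 3p at chr7:142577078-142577099, minus strand). Mest holds miR-335 outside the exons of Mest-211 (5p at chr6:30741314-30741336 and 3p at chr6:30741354-30741375, plus strand). Meg3 holds miR-770 in an exon (5p at chr12:109563710-109563731 and 3p at chr12:109563744-109563765, plus strand).
miR-675-5p: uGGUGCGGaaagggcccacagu
miR-675-3p: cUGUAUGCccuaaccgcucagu
miR-335-5p: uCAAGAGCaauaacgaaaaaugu
miR-335-3p: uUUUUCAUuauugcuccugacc
miR-770-5p: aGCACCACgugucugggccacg
miR-770-3p: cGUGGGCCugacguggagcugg
None of the 6 seeds is shared with another of these sequences. Small RNAs were not measured, and a host transcript count is no measure of its microRNA.

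A RefSeq promoter, taken here as the 250 bases before a start, was found for 8 of the 10 members (12 starts), and not for H19 and Cdkn1c. The core letters of the OTX2 motif (TAATCC, or GGATTA on the other strand) stand in 6.25% of 32851 promoters of this length. Among the members they occur in Mest alone, 194 bases before the start from which Mest-211 is read, and the same letters are counted again in a second Mest window that begins 3 bases further on. The palindrome GGGGCCCC, given as the PLAGL1 motif, stands in 0.889% of all promoters and among the members in that of Peg3, 201 bases before the start. The promoters of Mest (chr6:30737800-30738049) and Dlk1 (chr12:109452573-109452822), both on the plus strand, are printed because Mest fell in a comparison with Otx2 labels and Dlk1 differed most between the ventricles, with the OTX2 letters in capitals.
Mest: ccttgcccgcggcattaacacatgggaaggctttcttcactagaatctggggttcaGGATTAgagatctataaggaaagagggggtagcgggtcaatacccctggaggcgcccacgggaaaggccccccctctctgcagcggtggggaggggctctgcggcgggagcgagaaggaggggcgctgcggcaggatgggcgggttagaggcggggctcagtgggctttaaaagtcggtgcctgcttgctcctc
Dlk1: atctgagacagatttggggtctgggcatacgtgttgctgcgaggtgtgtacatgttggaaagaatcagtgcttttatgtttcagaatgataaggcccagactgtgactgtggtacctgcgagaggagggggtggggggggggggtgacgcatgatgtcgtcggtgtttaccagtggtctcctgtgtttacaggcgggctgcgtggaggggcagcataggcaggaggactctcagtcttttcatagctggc
A match is a description of the letters in this window only, and GC content was 62.4% in the Mest window and 54.8% in the Dlk1 window.

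Pools held 22750019 to 50088408 counts over all transcripts, and 10558002 to 24833188 over the transcripts chosen for the genes. Among the 16 conditional files, 14 carry a library number other than that of the sample they were deposited under, and the number decided to which pool a file went. Values under the deposited assignment differ, and those that reversed or lost a call are given with the other settings. Otx2, the targeted gene, counted over its whole transcript at 391 and 476 CPM in the LV vehicle pools, 1240 and 1020 in LV Cre-Tat, 383 and 392 in 4V vehicle, 1200 and 1210 in 4V Cre-Tat, 362 and 303 in WT, 1030 and 884 in Otx2 (+/-), and 339 and 353 in Otx2 (+/AA). It was thus higher where the labels say knockdown. The exon that the study deletes is not counted apart in these files, so this count does not check the labels, and every group name here is a label. ChP epithelium markers other than Otx2 summed to 65400 to 198000 CPM in every pool, most of it Ttr, the thyroid hormone carrier of this epithelium. Markers of other cells were present in every group: of 10 stromal markers Dpt was under 0.5 CPM in every group and the list summed to 444 to 1130 CPM, of 7 glial markers 1 or 2 were under 0.5 CPM and the list summed to 42.7 to 150.0 CPM, and of 8 neuronal markers 1 to 4 were under 0.5 CPM and the list summed to 7.82 to 28.4 CPM.

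Cdkn1c had the highest level of the 10 members per transcript length in both runs, followed by Peg3, Mest, Plagl1 and Grb10. In the 8 pools of the conditional model the median CPM (counts scaled to a common library size with TMM factors) per kilobase was 58.4 for Peg3, 40.2 for Mest, 11.5 for Plagl1 and 9.50 for Grb10, and the group means of Cdkn1c were 73.3 to 115 CPM per kilobase. Ndn (6.79), Nnat (4.28), Dlk1 (1.47), Meg3 (1.27) and H19 (0.325) followed. This order hides the groups: Dlk1 was the lowest member in both LV groups, at 0.0835 and 0.123 CPM per kilobase. In the 6 pools of the constitutive model, all of 4V, H19 (0.904) and Meg3 (0.450) were the lowest, and Dlk1 (5.13) lay between Nnat (6.81) and Ndn (4.66). In both runs Cdkn1c and Peg3 did not overlap over pools, nor did Mest and Plagl1. In the constitutive run Ndn and H19, and H19 and Meg3, did not overlap either, and all other neighbours in the order did in both runs. Within the conditional run the highest pool was 1.50 times the lowest for Grb10, 1.55 for Peg3 and 1.71 for Mest, and 72.6 times for Dlk1 and 18.0 times for H19. Within the constitutive run it was 1.12 times for Mest, the least of the members, and 3.19 times for Nnat, the most. H19 rested on 5 to 73 reads in a pool.

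**Figure D1:**
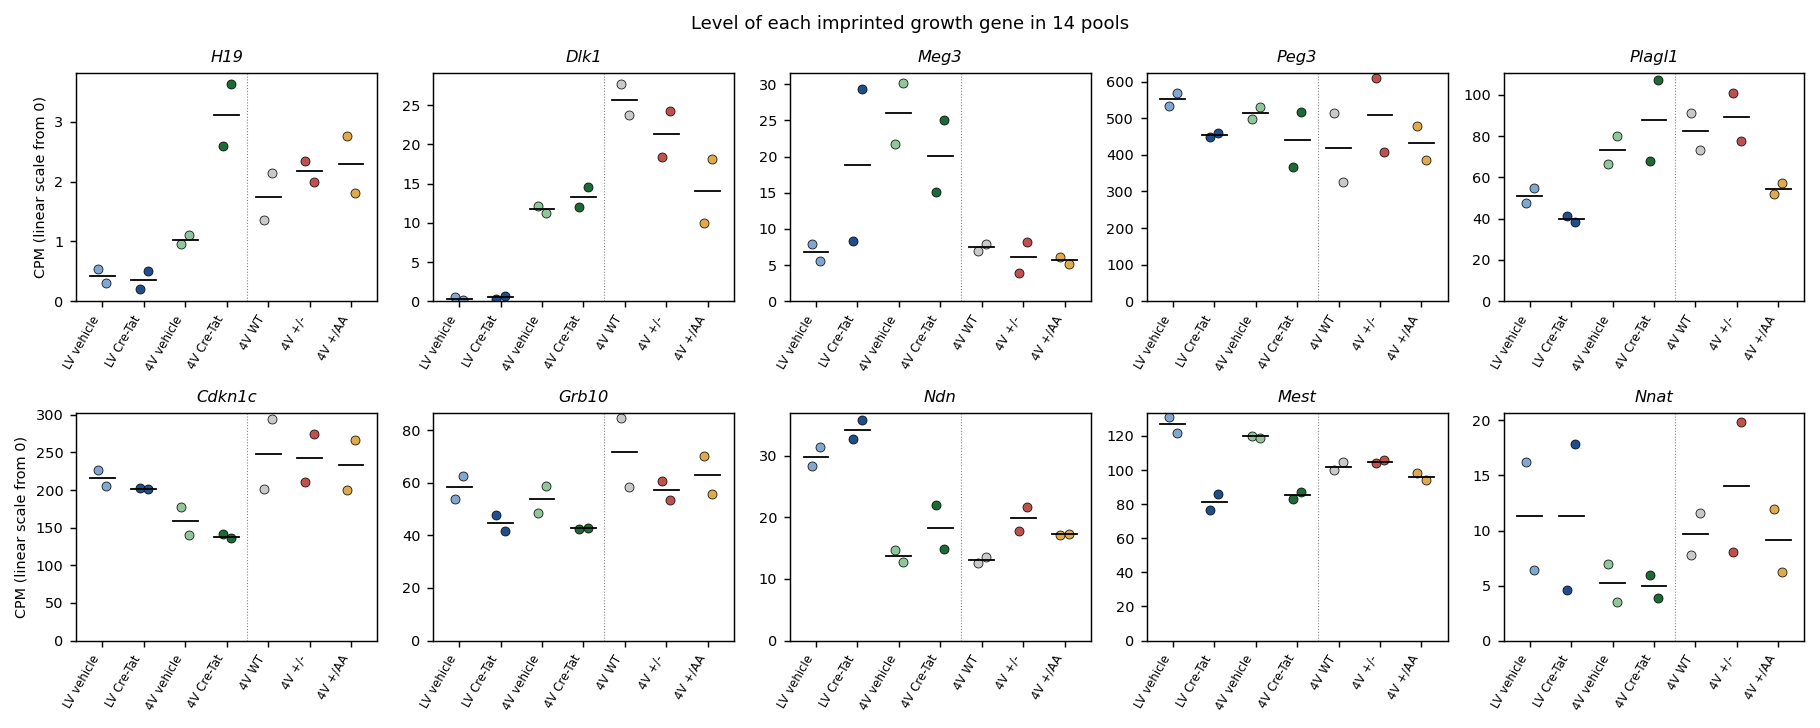
Level of each member in every pool, in CPM on a linear axis from 0. Points are the 2 pools of a group, the line is their mean, and the dotted line parts the models. Dlk1 is near 0 in the 4 LV pools and at 9.99 to 27.7 in the 10 pools of 4V, and Mest is lower in the 4 pools labelled Cre-Tat (76.7 to 86.9) than in the 4 vehicle pools (119 to 131).

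The first comparison asked whether the members differ between the ChP of the lateral and the fourth ventricle in vehicle pools. Of the 10 members, 4 differed (edgeR quasi-likelihood test, Benjamini-Hochberg over all genes), against a background of 7.44% of all genes tested. Dlk1, Meg3 and Plagl1 were higher in 4V and Ndn was higher in LV. The median log2 fold change of the members, LV over 4V, was 0.06, beside 0.01 over all genes.

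Dlk1 read 0.484 and 0.202 CPM in the vehicle LV pools, from 10 and 4 reads, and 12.2 and 11.3 CPM in the vehicle 4V pools. Both LV pools lay far under both 4V pools. The log2 fold change was -5.09 ± 0.35 (SE, n = 2 pools per group, adjusted p = 2.67e-06 by edgeR), a 34.1-fold higher level in 4V. All 9 Dlk1 transcripts with a mean count of 20 or more were lower in LV, by -5.26 to -4.77 on the log2 scale, although these transcripts share exons and are not independent. The same was seen in pools the first fit did not use: in the Cre-Tat pools, Dlk1 was at 0.283 and 0.727 CPM in LV and at 12.0 and 14.6 CPM in 4V. There the log2 fold change was -4.74 ± 0.34 (adjusted p = 9e-08 by edgeR). Over the other settings tried for the vehicle pools it lay between -5.86 and -4.59, apart from the files as attached, which mix the ventricles. With those files it was -0.15 and did not pass (adjusted p = 0.275 by edgeR).

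Meg3, the maternally expressed neighbour of Dlk1, was at 7.94 and 5.59 CPM in the vehicle LV pools and at 21.8 and 30.2 CPM in the vehicle 4V pools. It was 3.89-fold higher in 4V, with a log2 fold change of -1.96 ± 0.21 (SE, adjusted p = 7.05e-05 by edgeR). Meg3 thus lay on the same side as Dlk1 in the vehicle pools. In the Cre-Tat pools the groups overlapped, with 8.37 and 29.3 CPM in LV and 15.1 and 25.1 CPM in 4V, and the log2 fold change was -0.10 ± 0.36 (adjusted p = 0.923 by edgeR). That value rests on LV Cre-Tat pool B: without it, the log2 fold change was -1.28. Of the other genes of this cluster, Wdr25 did not pass in the vehicle pools (-0.48, adjusted p = 0.303 by edgeR). Rtl1 had 15 reads or fewer in every pool and was too low to be tested between the ventricles.

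Ndn was the member that was higher in LV. It was at 28.3 and 31.4 CPM in the vehicle LV pools and at 14.7 and 12.7 CPM in the vehicle 4V pools, and the groups did not overlap. The log2 fold change was 1.09 ± 0.15 (SE, adjusted p = 0.000614 by edgeR), or 2.13-fold. In the Cre-Tat pools it was 0.89 ± 0.20 (adjusted p = 0.0114 by edgeR), a call that was lost without 4V Cre-Tat pool B (0.64, adjusted p = 0.297). Of its cluster in the Prader-Willi region, Snrpn (0.14) and Ube3a (0.13), a splicing protein and a ubiquitin ligase, had adjusted p = 0.543 and 0.61 by edgeR between the ventricles of the vehicle pools. Mkrn3 (1.40 and 0.756 CPM in LV, 1.98 and 1.93 CPM in 4V) and Atp10a (1.79 and 1.36, then 2.43 and 2.12) read lower in LV. Peg12 (0.871 and 0.655, then 0.441 and 0.184) read higher there, and none of these was called. Magel2 had 1 read at most in any pool and was not tested.

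Plagl1 was 1.46-fold higher in 4V of the vehicle pools, where it read 66.5 and 80.1 CPM, than in LV, where it read 47.8 and 54.7 CPM. The log2 fold change was -0.55 ± 0.13 (SE, adjusted p = 0.0211 by edgeR). All 24 Plagl1 transcripts were lower in LV, by -1.40 to -0.52 on the log2 scale, and the one that stands for the gene was near the small end of that range. In the Cre-Tat pools the value was -1.15 ± 0.21 (adjusted p = 0.0019 by edgeR). The call was lost without vehicle 4V pool B (-0.41, adjusted p = 0.223) and, in the Cre-Tat pools, without 4V Cre-Tat pool B (-0.78, adjusted p = 0.0728).

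H19 also read lower in LV in both treatments, at 0.533 and 0.302 CPM in vehicle pools and 0.202 and 0.500 CPM in Cre-Tat pools. The vehicle 4V pools had 0.955 and 1.10 CPM. With 6 and 11 reads in the vehicle LV pools, the log2 fold change of -1.30 ± 0.60 missed the threshold (adjusted p = 0.213 by edgeR). In the Cre-Tat pools, where 4V had 2.59 and 3.64 CPM, it was -3.16 ± 0.50 (adjusted p = 0.00058 by edgeR).

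In the main edgeR fit, the 5 remaining members did not pass between the ventricles in either treatment. Cdkn1c and Nnat passed under some of the other settings, which are given at the end. Cdkn1c was at 206 to 226 CPM in the vehicle LV pools and 140 to 177 CPM in the vehicle 4V pools, a log2 fold change of 0.42 ± 0.14 (adjusted p = 0.0844 by edgeR). Its log2 fold change was 0.61 without vehicle 4V pool A and 0.50 without vehicle LV pool B. Nnat had 16.2 and 6.40 CPM in LV and 6.98 and 3.50 CPM in 4V, and its groups overlapped (1.06 ± 0.39, adjusted p = 0.118). Without vehicle LV pool B, Nnat was at 1.58. In the Cre-Tat pools, where it was 1.19 ± 0.41, it was 1.89 without LV pool A and 1.54 without 4V pool A. A group left with 1 pool shows no spread, so these values are given as sizes of change only. Peg3, Grb10 and Mest differed by 0.05 to 0.09 on the log2 scale, with adjusted p of 0.743 to 0.841. The comparison in the Cre-Tat pools was added after seeing the data, and it called 4 of 10 members (H19, Dlk1, Plagl1 and Ndn) against a background of 5.87%, and DESeq2 called Cdkn1c as well. Markers of other cells moved with the ventricle too: those of endothelium summed to 210 and 234 CPM in the vehicle LV pools and 137 and 147 CPM in the vehicle 4V pools, and 3 of 8 passed. In bulk pools a change in the share of a cell type and a change in RNA per cell cannot be told apart. The part of these markers in the members' values was not tested.

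**Figure D2:**
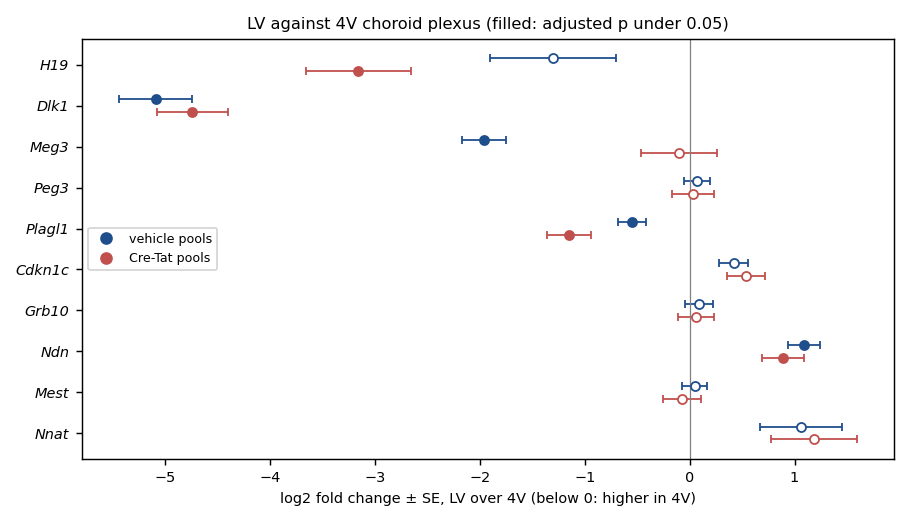
Difference between LV and 4V for each member in the vehicle pools (blue) and Cre-Tat pools (red), as log2 fold change with its SE, n = 2 pools per group; filled points have an adjusted p under 0.05. Dlk1 lies at -5.09 and -4.74 and Ndn at 1.09 and 0.89, while Meg3 lies at -1.96 and -0.10.

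The second comparison asked what Cre-Tat does to the members in 4V ChP. H19 rose and Mest fell, 2 of 10 members against a background of 10.7% of all genes tested. H19 was at 0.955 and 1.10 CPM in the vehicle pools, from 13 and 12 reads, and at 2.59 and 3.64 CPM in the pools labelled Cre-Tat, from 48 and 73 reads. The groups did not overlap, and the log2 fold change was 1.61 ± 0.38 (SE, n = 2 pools per group, adjusted p = 0.0105 by edgeR), or 3.05-fold. H19-205, the other transcript with enough reads, moved the same way (1.26). H19 missed the threshold in DESeq2 (adjusted p = 0.0731) and without vehicle pool A (0.0532) or Cre-Tat pool B (0.0851), with a log2 fold change between 1.34 and 1.82 in all settings apart from the files as attached.

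Mest was at 120 and 119 CPM in the vehicle 4V pools and at 83.3 and 86.9 CPM in the pools labelled Cre-Tat. It fell by 0.48 ± 0.13 on the log2 scale (SE, adjusted p = 0.0215 by edgeR), or 1.39-fold. All 10 Mest transcripts with enough counts were lower, by -0.69 to -0.49, with no overlap between the groups in any of them. Copg2, whose exons overlap those of Mest-211 on the other strand, was at 73.9 and 82.3 CPM and then at 69.5 and 63.1 CPM, and its log2 fold change of -0.23 did not pass (adjusted p = 0.351 by edgeR). Counted on Mest-207, which shares no exon with Copg2, Mest had a similar log2 fold change of -0.54 with a wider error and missed the threshold (adjusted p = 0.0643, a setting chosen after seeing the data). It also missed the threshold when pools were scaled by total counts (-0.34, adjusted p = 0.159) and without vehicle pool A (0.193), vehicle pool B (0.115) or Cre-Tat pool A (0.0506).

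**Figure D3:**
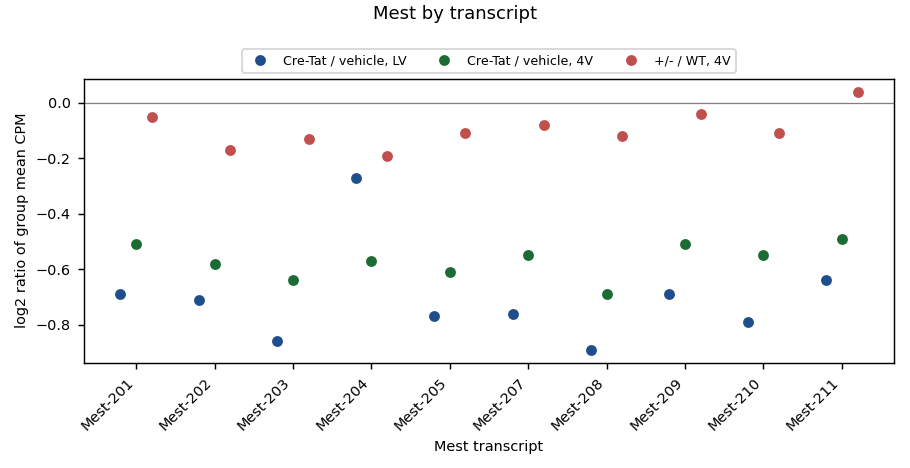
Log2 ratio of the group mean CPM for each Mest transcript with a mean count of 20 or more, in 3 comparisons; transcripts share reads and are not independent. All 10 lie between -0.69 and -0.49 for Cre-Tat against vehicle in 4V and between -0.89 and -0.27 in LV, and between -0.19 and 0.04 for Otx2 (+/-) against WT.

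The remaining members of 4V ChP did not pass. Grb10 was at 48.4 and 58.9 CPM in vehicle and at 42.5 and 42.8 CPM in Cre-Tat pools (-0.32 ± 0.14, adjusted p = 0.172 by edgeR), without overlap between the groups. Ndn was at 14.7 and 12.7 CPM in vehicle and at 21.9 and 14.8 CPM in Cre-Tat (0.42 ± 0.20, adjusted p = 0.216). Dlk1, Meg3, Peg3, Plagl1, Cdkn1c and Nnat had log2 fold changes of -0.36 to 0.27, with adjusted p between 0.348 and 0.885. Plagl1 was at 0.27 on the transcript that stands for it, but of its 24 transcripts 14 were lower and 9 higher (median -0.02). Meg3 was at -0.36 on its chosen transcript, and all 9 of its transcripts with enough counts were lower, by -0.90 to -0.37 (median -0.57). Transcripts of a gene share exons and are not independent. Single pools weighed on some of these members: without Cre-Tat pool A Plagl1 was at 0.55, and without Cre-Tat pool B Meg3 was at -0.77 and Ndn at 0.68. The median log2 fold change of the members was -0.15, beside 0.01 over all genes.

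The third comparison asked the same of LV ChP, where edgeR called none of the 10 members, against a background of 3.24%. At an unadjusted p under 0.05 there were 3 (Meg3, Grb10 and Mest), beside 14.2% of all genes, and DESeq2 called 1 (Mest). Mest was at 131 and 122 CPM in the vehicle pools and at 76.7 and 86.2 CPM in the pools labelled Cre-Tat. These groups did not overlap, and its log2 fold change of -0.61 ± 0.16 (adjusted p = 0.0535 by edgeR) was close to the threshold and had the direction seen in 4V. Without Cre-Tat pool B Mest was at -0.70. Its adjusted p over the other settings, apart from the files as attached, lay between 0.00673 and 0.452. H19 had 5 to 11 reads in an LV pool, and its change of -0.24 ± 0.78 (adjusted p = 0.957 by edgeR) could not be resolved at this depth.

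Meg3 in LV differed between the pools of 1 group more than between groups. It was at 7.94 and 5.59 CPM in vehicle pools, and at 8.37 CPM in Cre-Tat pool A and 29.3 CPM in Cre-Tat pool B. The log2 fold change was 1.50 ± 0.41 (adjusted p = 0.064 by edgeR), and 0.33 without Cre-Tat pool B. It was 1.77 without vehicle pool A, 1.27 without vehicle pool B and 2.16 without Cre-Tat pool A. Meg3-206, a transcript that shares no exon with another gene, read 3.39 and 2.72 CPM in vehicle and 4.21 and 11.5 CPM in Cre-Tat. Markers of neurons, where Meg3 is abundant, summed to 19.4 and 20.4 CPM in vehicle and to 28.4 CPM in Cre-Tat pool A and 25.6 CPM in pool B. Of 8 neuronal markers 6 could be tested, 5 of them had a positive log2 fold change and 1 a negative one, with a median of 0.94. Snap25, a synaptic protein, rose in the pools labelled Cre-Tat (1.27 ± 0.24, adjusted p = 0.0104 by edgeR), and Nefl, a neurofilament (1.57), Stmn2 (0.85), Gad1 (0.86), Slc17a7 (1.02) and Syt1 (-0.31) did not pass. In Cre-Tat pools A and B, Stmn2 was at 1.62 and 2.23 CPM, Gad1 at 0.728 and 1.41 CPM, and Slc17a7 at 0.607 and 0.682 CPM. Nefl (3.76 and 2.77 CPM) and Syt1 (9.99 and 9.64 CPM) were lower in pool B, where Meg3 was higher. Snap25 was lower in pool B too, at 7.96 CPM. The part of these markers in the values of Meg3 was not tested.

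Nnat behaved alike in that its pools differed within groups. It was at 16.2 and 6.40 CPM in vehicle LV and at 4.61 and 17.9 CPM in Cre-Tat LV. The groups overlapped, and the log2 fold change was 0.02 ± 0.47 (adjusted p = 0.997 by edgeR). Markers of glia summed to 55.5 and 92.3 CPM in the same vehicle pools and to 105 and 116 CPM in the Cre-Tat pools. In the vehicle LV and Cre-Tat 4V groups the pool with more Nnat had the lower sum, and in each of the other groups the pool with more Nnat had the higher one. The part of glia in Nnat was not tested. Dlk1, Peg3, Plagl1, Cdkn1c, Grb10 and Ndn had log2 fold changes of -0.36 to 0.55 in LV, with adjusted p between 0.339 and 0.926. Peg3 (534 and 570 CPM, then 450 and 460 CPM), Plagl1 (47.8 and 54.7, then 41.4 and 38.2) and Grb10 (53.8 and 62.6, then 47.8 and 41.7) were each lower in both Cre-Tat pools, and did not pass. The median log2 fold change of the members in LV was -0.16, beside 0.00 over all genes.

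Whether the ventricles respond differently was tested as an interaction over the 8 pools of the conditional model. None of the 10 members passed in edgeR (adjusted p = 1.0 for each) or in DESeq2, and 0.00642% of all genes did in edgeR, which was 1 gene of 15565. At an unadjusted p under 0.05 there were 3 members, beside 2.67% of all genes. Meg3 had a response lower in 4V than in LV by 1.86 ± 0.58 on the log2 scale, and H19 and Plagl1 had responses higher in 4V by 1.85 ± 0.79 and 0.61 ± 0.27. For Mest, the responses differed by 0.13 ± 0.19.

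Markers of the epithelium and of other cells moved with Cre-Tat and are given beside these results. In 4V, 9 of 10 markers of ChP epithelium fell and the tenth, Otx2, rose, and the sum without Otx2 was 175000 and 147000 CPM in vehicle pools and 77500 and 65400 CPM in pools labelled Cre-Tat. In LV, 4 of the 10 fell and the sums were 189000 and 198000 CPM, then 101000 and 139000 CPM. Most of each sum was Ttr, at 167000 and 138000 CPM in vehicle 4V pools and 73400 and 60500 CPM in Cre-Tat 4V pools. The study names Ttr as a direct target of OTX2, so these sums are no measure of how much epithelium a pool held. Markers of macrophages and microglia rose, 5 of 7 in 4V (summed 45.1 and 42.2 CPM, then 91.0 and 70.3 CPM) and 2 of 7 in LV (61.1 and 68.0, then 112 and 98.7). Their part in the change of H19 and Mest was not tested.

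The fourth comparison asked whether the constitutive heterozygote differs from wildtype in 4V ChP. EdgeR called none of the 10 members and neither did DESeq2, against a background of 3.53% of genes in edgeR. At an unadjusted p under 0.05 there was 1, Ndn, beside 18.5% of all genes. It was at 12.5 and 13.6 CPM in WT and at 17.8 and 21.7 CPM in Otx2 (+/-), without overlap, and its log2 difference was 0.60 ± 0.16 (adjusted p = 0.0932 by edgeR). Mest was level, at 0.04 ± 0.11 (adjusted p = 0.907), the smallest SE of the members. H19 was at 1.36 and 2.14 CPM in WT and at 2.34 and 2.00 CPM in Otx2 (+/-), and its groups overlapped (0.31 ± 0.35, adjusted p = 0.688). The 7 others had log2 fold changes of -0.32 to 0.53. Among them Plagl1 was at 0.11 on the transcript that stands for it, but 19 of its 24 transcripts were lower and 5 higher (median -0.29). Meg3 was at -0.30 on its chosen transcript, and all 7 of its transcripts with enough counts were lower, by -0.96 to -0.30 (median -0.69). Of the 10 epithelial markers 3 fell here (Ttr, Folr1 and Prlr) and Otx2 rose. Among stromal markers 2 of 9 tested rose (Col1a2 and Col3a1). Their list summed to 818 and 740 CPM in WT and to 1130 and 1020 CPM in Otx2 (+/-). Aqp4 of the glial and Mrc1 of the macrophage list rose, Cdk1 of the proliferation list fell, and no endothelial, mural or neuronal marker passed. The part of these markers in the members' values was not tested. Without WT pool B the change of Grb10 went from -0.32 to -0.57. Nnat was at 7.74 and 11.6 CPM in WT and at 8.08 and 19.9 CPM in Otx2 (+/-). Its change went from 0.53 to 0.85 without WT pool B and to 1.04 without Otx2 (+/-) pool A.

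**Figure D4:**
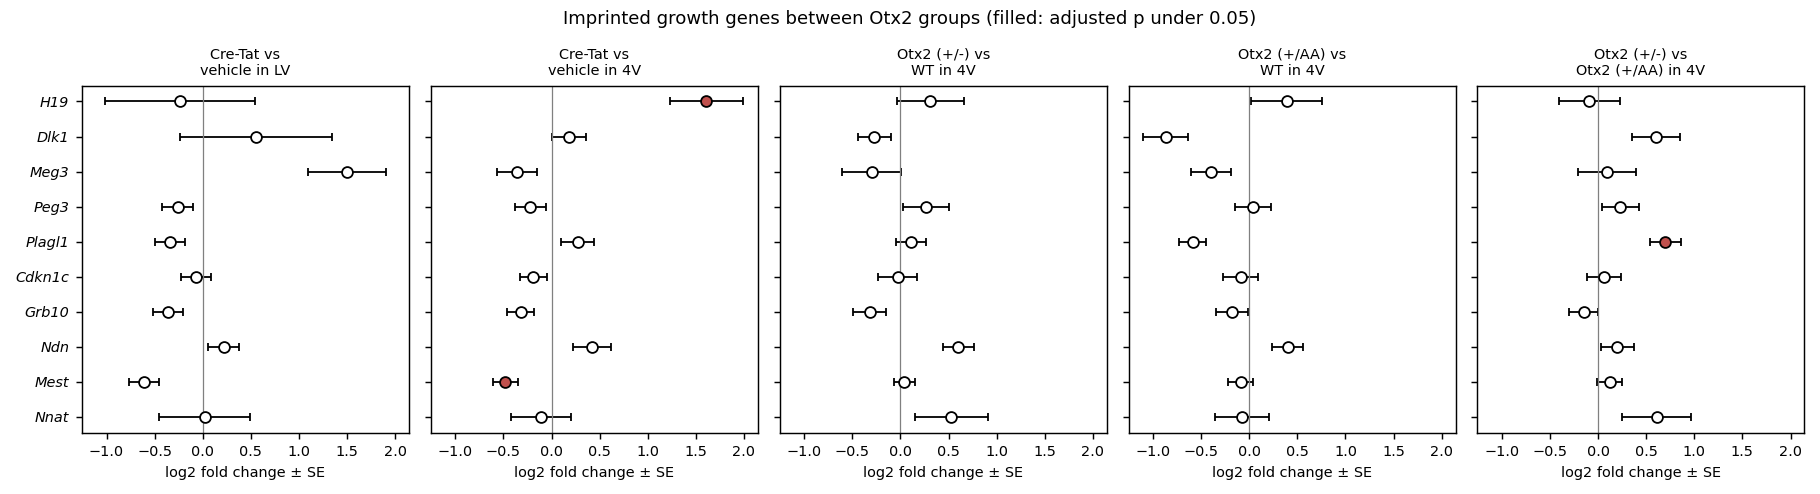
Log2 fold change of each member with its SE in 5 comparisons, n = 2 pools per group; filled points have an adjusted p under 0.05. H19 (1.61) and Mest (-0.48) are filled for Cre-Tat against vehicle in 4V and Plagl1 (0.70) for Otx2 (+/-) against Otx2 (+/AA), and no other point is filled.

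The difference between the models was tested as well, as the Cre-Tat response in 4V minus the Otx2 (+/-) response. No member passed in edgeR or DESeq2, against 1.64% of all genes in edgeR, and 2 had an unadjusted p under 0.05, beside 13% of all genes. Mest differed by -0.53 ± 0.16 (adjusted p = 0.138 by edgeR) and H19 by 1.28 ± 0.51 (adjusted p = 0.299).

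The last comparisons concern the Otx2 (+/AA) pools. Against WT, edgeR called none of the members, with a background of 0.345%, while 3 had an unadjusted p under 0.05 (Dlk1, Plagl1 and Ndn), beside 8.91% of all genes, and DESeq2 called Plagl1 alone. Plagl1 was at 91.3 and 73.4 CPM in WT and at 52.1 and 57.2 CPM in Otx2 (+/AA), and the groups did not overlap (-0.59 ± 0.14, adjusted p = 0.111 by edgeR). Dlk1 was at 27.7 and 23.7 CPM in WT and at 9.99 and 18.2 CPM in Otx2 (+/AA), also without overlap (-0.87 ± 0.23, adjusted p = 0.159 by edgeR). The log2 fold change of Dlk1 was -0.76 without WT pool A, -0.98 without WT pool B and -1.37 without Otx2 (+/AA) pool B. That of Plagl1 was -0.74 without WT pool B.

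Between the mutants, 1 of 10 members passed, against a background of 2.7%. Plagl1 was at 101 and 77.5 CPM in Otx2 (+/-) and at 52.1 and 57.2 CPM in Otx2 (+/AA), a 1.62-fold higher level (log2 fold change 0.70 ± 0.16, adjusted p = 0.0341 by edgeR). DESeq2 called the same gene. The call was lost when all transcripts of a gene were summed (0.59, adjusted p = 0.176) and without Otx2 (+/-) pool A (0.50, adjusted p = 0.243). Dlk1, at 18.4 and 24.3 CPM against 9.99 and 18.2 CPM, did not pass (0.60 ± 0.25, adjusted p = 0.296). Its value was 1.09 without Otx2 (+/AA) pool B and 0.79 without Otx2 (+/-) pool A. Nnat, at 0.61 ± 0.36, was at 1.15 without Otx2 (+/AA) pool A and at 1.12 without Otx2 (+/-) pool A. Stromal markers summed to 1130 and 1020 CPM in Otx2 (+/-) and to 665 and 780 CPM in Otx2 (+/AA). Of 9 tested, 8 were higher in Otx2 (+/-) and 1 lower, and Dcn and Col1a2 passed. Of the epithelial markers Folr1 was lower and Otx2 higher, and no marker of the other lists passed. The part of these markers in the members' values was not tested. The comparisons between the mutants share pools with those against WT and are not independent of them.

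The neighbours of the members were described from a list of 42 genes in or beside the same clusters, of which 34 were in the files and 21 to 26 could be tested. In 4V Cre-Tat pools 4 of 21 fell and none rose, beside the 10.7% of all genes, and these were Igf2, Ins2, Igf2os and Phactr2. In LV Cre-Tat pools 2 of 24 fell (Igf2 and Ins2), beside 3.24% of all genes, and in Otx2 (+/-) Igf2 and Ins2 fell, 2 of 22, beside 3.53%. Their median log2 fold changes were -0.06, 0.01 and -0.04, beside 0.01, 0.00 and 0.00 for all genes.

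Igf2, at 1180 and 1280 CPM in vehicle 4V pools, was at 450 and 606 CPM in the pools labelled Cre-Tat, where H19 rose (-1.22 ± 0.17, adjusted p = 0.000106 by edgeR). Its log2 fold change was -1.13 in LV and -1.32 in Otx2 (+/-), where H19 did not pass. Ins2, an insulin gene beside Igf2, was at 12.3 and 10.9 CPM in vehicle 4V and at 4.96 and 4.64 CPM in Cre-Tat 4V (-1.27 ± 0.21, adjusted p = 0.000508). Igf2os, which is antisense to Igf2 and cannot be told apart from it without strand, went from 5.07 and 6.63 CPM to 1.67 and 1.75 CPM (-1.75 ± 0.30, adjusted p = 0.000694). H19 and its neighbours thus passed in opposite directions in 4V. The comparison gives no measure of the enhancers or of the methylated region between them.

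**Figure D5:**
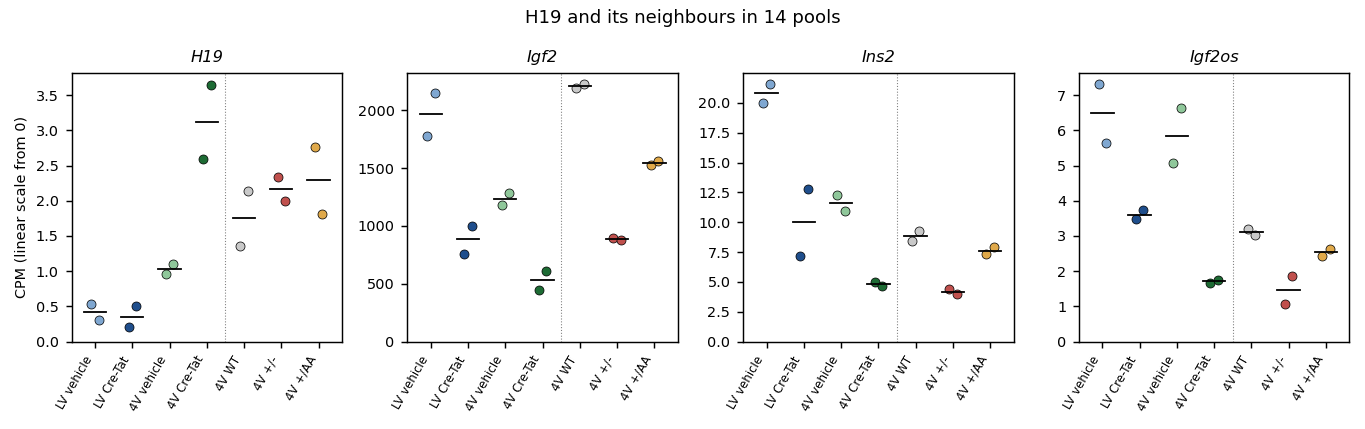
H19 and 3 neighbours of its cluster in every pool, in CPM on linear axes from 0. Points are pools, lines are group means, and the dotted line parts the models. In 4V, H19 is higher in the pools labelled Cre-Tat (2.59 and 3.64 against 0.955 and 1.10), while Igf2, Ins2 and Igf2os are lower there.

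Phactr2, the neighbour of Plagl1, was at 387 and 394 CPM in vehicle 4V and at 223 and 316 CPM in Cre-Tat 4V (-0.53 ± 0.16, adjusted p = 0.0404 by edgeR), while Plagl1 itself did not pass. Around Cdkn1c, which was itself at -0.19, Nap1l4, Cd81, Tssc4 and Osbpl5 had log2 fold changes of 0.16 to 0.42 in 4V and none passed. Slc22a18 of the same cluster went the other way, from 3.38 and 4.33 CPM in vehicle 4V to 2.32 and 2.54 CPM in Cre-Tat 4V, and was not called either. Cobl, beside Grb10, passed between ventricles in the Cre-Tat pools alone (-1.28, adjusted p = 0.0013), and in the vehicle pools it had -0.46 (adjusted p = 0.0801). Blcap, the host of Nnat, had 0.33 in 4V Cre-Tat (adjusted p = 0.287).

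Imprinted genes elsewhere in the genome were described from a list of 32, of which 31 were in the files and 22 to 25 could be tested. Whether the listed genes are imprinted in ChP was not tested. In 4V Cre-Tat pools 1 of 23 passed, beside 10.7% of all genes, and in LV none of 24, with median log2 fold changes of -0.25 and -0.14. That gene was Peg10, a retrotransposon-derived gene of placenta, at 7.79 and 17.9 CPM in vehicle and 18.1 and 34.5 CPM in Cre-Tat (1.06 ± 0.30, adjusted p = 0.0268 by edgeR). Its pools of the same letter differed alike, and the ranges of the groups were close to touching. Peg10 was also higher in Otx2 (+/-) than in Otx2 (+/AA), at 30.6 and 20.6 CPM against 6.61 and 10.8 CPM (1.55 ± 0.25, adjusted p = 0.00541), where the stromal proteoglycan gene Dcn passed too (0.85 ± 0.16, adjusted p = 0.0128).

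In Otx2 (+/-) against WT, 3 of 24 passed, beside 3.53% of all genes. Zdbf2 fell from 22.7 and 16.7 CPM to 10.9 and 7.43 CPM (-1.10 ± 0.22, adjusted p = 0.0339 by edgeR), and Pon3, a paraoxonase, from 117 and 109 CPM to 83.5 and 71.9 CPM (-0.54 ± 0.12, adjusted p = 0.0497). Ppp1r9a, an actin-binding scaffold of protein phosphatase 1, rose from 254 and 245 CPM to 384 and 348 CPM (0.55 ± 0.12, adjusted p = 0.04). None of 22 passed in Otx2 (+/AA) against WT. Between the ventricles of the vehicle pools 4 of 24 passed, beside 7.44% of all genes: Gnas, which encodes a G protein subunit, Pon2 and Dcn were higher in LV by 0.57, 0.50 and 0.59 on the log2 scale, and Trappc9, of a vesicle tethering complex, was lower by -0.51. Igf2 (0.64) and Ins2 (0.81) were higher in LV as well, with adjusted p = 0.0096 and 0.00698 by edgeR.

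The genes whose pattern over the 14 pools was most like that of a member were found by the root mean square difference of log2 CPM, centred within each run, among genes with a mean of 1 CPM or more. Dlk1 was nearest to Meis1 and Gdf7 (0.48 and 0.52 on the log2 scale, correlation 0.95 for each), a homeodomain factor and a BMP ligand. Fam13c was among the nearest to H19 (0.33), and Prom1 to Meg3 (0.37). Mest was nearest to Dusp10 and Zfp846 (0.10 each), Plagl1 to Cobll1 (0.16) and Helz2 (0.19), and Ndn to Igsf5 and S1pr3 (0.20 each). For Peg3 these were Camsap2 (0.09) and Rai14 (0.11), for Cdkn1c Arl6ip5 and Gdpd5 (0.13 each), for Grb10 Cxadr and Otud1 (0.10 each), and Aldh1a2 was among the nearest to Nnat (0.28). No member was among the nearest genes of another. The pools share runs and groups, and the nearest genes of a large table are close by construction, so these values are a description.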

How the data were processed

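RNA of pooled mouse ChP was sequenced in strand-specific libraries (ScriptSeq) after rRNA depletion per the labels, whereas the study's methods name polyA+ RNA. The submitters' processing notes list mm10, bcl2fastq 1.8.4, Bowtie 0.12.9, SAMtools, HTSeq 0.5.3 and DESeq 1.8.3, and the strand setting of the counting is not given in the sources used here. The authors deposited raw counts per Ensembl transcript in 22 files of 11253762 to 43790479 counts. Of 95533 transcripts, 82807, with 89.5% of the counts, matched GENCODE vM21, and the transcript with the most counts stood for each of 33984 genes, so reads shared by genes on either strand stay in the values. The technical runs of a conditional pool were summed by the library number in the file name, where files of 1 number differed by sampling noise only (chi-square per degree of freedom 1.002 to 1.032, against 3.864 to 43.05 between numbers). Counts were tested with edgeR 4.0.16 (R 4.3.3, filterByExpr, TMM, quasi-likelihood, Benjamini-Hochberg over all genes, threshold 0.05), each comparison fitted on its own groups, with DESeq2 1.42.0 as an alternative. With 2 pools a group, the smallest p of an exact permutation test is 0.333, so none was used. Named genes were the 10 members, the called genes of the imprinted lists, and neighbours on which a result turned. The scripts were tested on simulated data. The members and lists were chosen with earlier results of these data known, and their counts are descriptions. Some of the genes with the most similar patterns are not reported here.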

Additional observations from a re-analysis of the deposited data

Results flagged for a closer look

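Ppp1r9a, from the list of imprinted genes outside the clusters of the members, responded differently in the 2 models of 4V ChP by a test of the difference itself. Its level went from 343 and 345 CPM in vehicle pools to 260 and 315 CPM in pools labelled Cre-Tat, and from 254 and 245 CPM in WT to 384 and 348 CPM in Otx2 (+/-). The difference of the responses was -0.82 ± 0.18 on the log2 scale (SE, adjusted p = 0.042 by edgeR). Model, strain and sequencing run cannot be told apart here. No member differed in this test.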

How the results depend on the processing

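Apart from the files as attached, 1070 values of members under the alternatives held 979 with the direction first given. The other 91 changed sign and were called in neither fit, 13 calls were lost and 49 gained. In LV Cre-Tat, 0 members passed at first, 1 in DESeq2, 2 without a filter and 1 with the replicate block, in 4V 2 at first, 1 in DESeq2, with total counts and on transcripts without shared exons, and 5 with the block. For Otx2 (+/-) 2 passed with the block, and for Otx2 (+/AA) 1 in DESeq2 and 2 without a filter or with the block. For Otx2 (+/-) against Otx2 (+/AA) 0 of the 1 remained when transcripts were summed. Between ventricles in vehicle, 4 passed at first and 6 without a filter or with the block, with Cdkn1c and Nnat added. In Cre-Tat pools 4 passed at first and 5 in DESeq2, where Cdkn1c was added. There 5 also passed with total counts, without a filter or with the block, with Nnat added. Without a filter 1 passed in the ventricle interaction, and with the block Mest (-0.53, adjusted p = 0.0167 by edgeR) and Peg3 (-0.53, 0.0427) passed in the model interaction, 2 members. Leaving out a pool gave 1 to 1 in LV Cre-Tat, 0 to 3 in 4V, 0 to 2 for Otx2 (+/-), 0 to 2 for Otx2 (+/AA), 1 to 2 between the mutants, 3 to 6 between ventricles in vehicle, 2 to 5 in Cre-Tat pools and 0 to 0 in both interactions, where a lone pool was assumed to vary like the others. The cause was not tested. With the block, all genes called went from 486 to 622 in LV, 1554 to 3114 in 4V, 515 to 2539 for Otx2 (+/-), 50 to 549 for Otx2 (+/AA) and 252 to 1048 in the model interaction. Between ventricles they went from 1083 to 2288 in vehicle and from 887 to 1177 in Cre-Tat pools. The block takes pools of the same letter as a set, and whether they share more than the letter is not given in the sources used here. Deviations of same-lettered pools correlated at -0.17 to 0.39. Total counts moved the median of all genes by 0.17 (log2) in LV and 0.15 in 4V.

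With files taken as attached, which mixes libraries of different groups, 9 members passed in LV, 7 in 4V, 6 in the ventricle and 4 in the model interaction. Between ventricles 6 passed in vehicle and 4 of 8 tested in Cre-Tat pools. Under this setting 24 values reversed. In LV these were Dlk1 -5.01, Meg3 -1.15, Peg3 0.18, Cdkn1c 0.43 and Grb10 0.15. In 4V they were H19 -2.75, Dlk1 -4.80, Plagl1 -1.10, Cdkn1c 0.56, Mest 0.06 and Nnat 1.73. Between ventricles Peg3 was -0.29 in vehicle, and Peg3 -0.08, Ndn -0.15 and Nnat -0.34 in Cre-Tat. In the ventricle interaction Meg3 was 0.57, Peg3 -0.21, Plagl1 -0.47, Cdkn1c 0.13 and Nnat 1.13, and in the model interaction H19 was -3.08, Dlk1 -4.55, Plagl1 -1.22 and Ndn 0.64. Without a change of sign, 2 calls were lost, both between ventricles. These were Dlk1 in vehicle (-0.15, adjusted p = 0.275 by edgeR) and Plagl1 in Cre-Tat pools (-0.06, 0.304). The comparison of ventricles in Cre-Tat pools and the transcripts without shared exons were chosen after seeing the data. H19 and, in LV, Dlk1 rest on few reads, and 2 pools a group limit every test.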
